A study of Homo sapiens with 17 samples.

Results

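GDF15, growth differentiation factor 15, is a secreted stress cytokine, and its messenger RNA is described here in every library of a study of PC3M cells. It was chosen on its level in these same libraries, so its values are given as a description, with no test on GDF15 itself. It is 1 gene of 14085 in the table of the proteasome inhibitor experiment, 1 of 13616 in the table of the heat shock experiment and 1 of 14613 found in either table. PC3M is an established metastatic line derived from the human prostate cancer line PC-3, and all 17 libraries come from it. By its title, the study concerns a circuit in which HSF1, a transcription factor of the stress response, JMJD6, an oxygenase, and heat shock proteins act on one another. Libraries were made with a kit that sequences a tag near the 3' end of each transcript. Cells received a non-targeting siRNA (siNT) or an siRNA against JMJD6 (siJMJD6) for 72 hours, or carried a knockout (KO) of HSF1.

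The MG132 table holds siNT cells given the solvent DMSO, siNT cells given MG132, siJMJD6 cells given MG132 and HSF1 KO cells given MG132, with 2 libraries in each group. MG132, which blocks the proteasome, was used at 2.5 µM for 4 hours. The heat shock table holds 3 groups of 3 libraries, which are unstressed siNT cells (basal), heat-shocked siNT cells and heat-shocked siJMJD6 cells. The heat-shocked cells spent 1 hour at 42 °C and recovered for 2 hours. The KO libraries carry the letters A and B, and the labels say neither whether these are separate clones nor whether KO cells received an siRNA. For siJMJD6 and KO cells a level present before stress cannot be told apart from a response to stress, since their unstressed cells were not analysed here. A change in the RNA of each cell and a change in the mix of cells cannot be told apart in these bulk libraries either.

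GDF15 is a divergent member of the TGF-β superfamily. It is made as a precursor, cut by furin-type convertases and secreted, and its known receptor, GFRAL with the co-receptor RET, is found in the hindbrain, where it limits appetite. Its gene is a known target of the integrated stress response, in which kinases of the translation factor eIF2α raise the transcription factors ATF4 and CHOP (gene DDIT3), and also of EGR1 and SP1.

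In the GENCODE annotation of GRCh38, the main GDF15 transcript lies on the plus strand of chromosome 19, from 18386158 to 18389176. Exon 1 spans 18386158 to 18386466 and exon 2 spans 18388286 to 18389176, and the microRNA gene MIR3189 lies in the intron between them, from 18386562 to 18386634. Reads counted per gene near the 3' end come mostly from the last exon. The promoter sequence of RefSeq (build GRCh38.p14), from 250 bases before to 50 bases after the start, was searched for short motifs. The motifs include those of SP1 and of C/EBP and ATF factors, and no EGR1 motif was searched. A TATA box, the core promoter element TATAAA read on the given strand, starts 29 bases before the transcript start, and 7.33% of 35116 promoters of this length hold one. GC boxes, the SP1 motif GGGCGG read on both strands, start at 119 and 70 bases before it, and 45.0% of promoters hold at least 1. The windows around these matches are shown 5′ to 3′ on the plus strand, with the motif in capitals. They lie at chr19:18386117-18386146, chr19:18386027-18386056 and chr19:18386076-18386105 in that order.
TATA box: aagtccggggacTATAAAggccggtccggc
distal GC box: cacccccagaccCCGCCCagctgtggtcat
proximal GC box: gcagggggaggaGGGCGGgactgagcaggc
The letters CCAAT occur once on either strand, 103 bases before the start, as in 34.6% of promoters. On either strand, the window holds no match to the C/EBP-ATF response element TGATGNAAN (3.61% of promoters), the CRE TGACGTCA (1.85%), the AP-1 site TGANTCA (7.71%) or the heat shock element GAANNTTC (6.77%). These are counts of letters in this window only, and no binding was measured.

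Values are the authors' normalised counts, and library totals lay between 1505826 and 1819640. Sequencing depth was not compared, because whole reads could be read from the steps between low values in some libraries only. Differences are in log2(normalised count + 1), ± the standard error (SE) of limma's fit over the whole table, and a gene is called, and said to rise or fall, at an adjusted p under 0.05. Separate cultures are not named in the labels, and the p-values therefore measure only how far libraries spread, which may be technical. The targeted genes followed the labels, with JMJD6 at 16.6 to 26.6 in siJMJD6 cells against 129.8 to 166.7 in siNT cells under MG132, and HSF1 at 285.2 and 175.4 in the KO libraries against 1687 and 1884. The HSF1 tags check the RNA level and not the deletion. Epithelial markers, led by KRT18, summed to 1479 to 2884 in every library. Blood and immune markers summed to 19.8 to 51.5, and PTPRC, CD3E, HBB and LYZ were not analysed here.

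GDF15 was far higher in the HSF1 KO cells than in any other group of the MG132 table. It had 21674.3 normalised counts in KO library A and 16226.7 in KO library B. In siNT cells it had 474.6 and 1482.9 in DMSO libraries 1 and 2. The KO libraries did not overlap any other group, and GDF15 was the 4th most abundant gene in each of them, with 1.27% and 1.01% of all normalised counts. In siNT cells under MG132 it had 474.9 and 1772.3 in libraries 1 and 2. In siJMJD6 cells under MG132 it had 1158.0 and 991.4. These 3 groups overlapped one another, and both siJMJD6 libraries lay between the siNT libraries under MG132. The rank of GDF15 in these 6 libraries ran from 116 to 556 of 14085 genes.

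**Figure D1:**
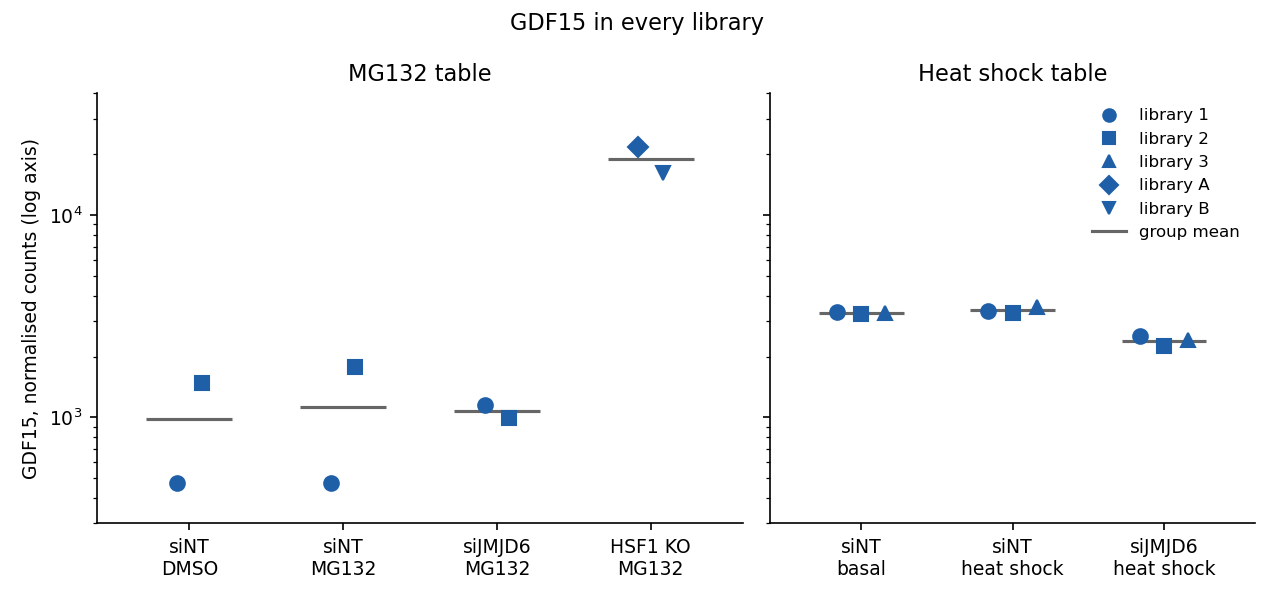
GDF15 in normalised counts (log axis) in every library, by group, with the MG132 table on the left and the heat shock table on the right. Symbols mark library numbers or letters and lines mark group means. The 2 KO libraries, at 21674.3 and 16226.7, sit above all others, and siNT libraries 1 and 2 stand apart under both DMSO and MG132. The tables were normalised separately, so heights are to be compared within a panel.

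In order of mean level the groups were siNT DMSO (979 ± 713, SD, n = 2), siJMJD6 MG132 (1075 ± 118), siNT MG132 (1124 ± 917) and KO MG132 (18950.5 ± 3852). The first 3 means lay within the spread of single libraries. MG132 against DMSO in siNT cells gave a GDF15 difference of 0.13 ± 0.53, with a 95% interval from −1.02 to 1.28. The fit did not pair libraries by number. By number, GDF15 was 474.6 in DMSO and 474.9 under MG132 in library 1, and 1482.9 and 1772.3 in library 2. siJMJD6 against siNT under MG132 gave 0.22 ± 0.53, from −0.92 to 1.37. Here the ratio of means was 0.956 although the log2 difference was positive, since 1 of the 2 siNT libraries was low. Without siNT MG132 library 1 the difference was −0.73, and without library 2 it was 1.17. The SE of GDF15 exceeded the median SE of all tested genes in this table, 0.39. It rests partly on other genes, because limma draws the spread of each gene toward that of genes of similar level. The SD of GDF15 itself between libraries, pooled over the groups of this table, was 0.90 (log2). Intervals from that spread alone would be wider than those given for this table. A difference the size of that seen after heat shock, below, was thus not detectable in this unpaired fit.

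KO against siNT under MG132 gave 4.35 ± 0.53, with a 95% interval from 3.20 to 5.50 and a ratio of means of 16.9. The 4 ratios of 1 KO to 1 siNT library ran from 9.16 to 45.6, while the siNT libraries themselves differed by 3.73-fold. Only 4 of 9778 tested genes had a larger positive difference in this comparison. Without siNT MG132 library 1 the difference was 3.40 and without library 2 it was 5.30. KO against siJMJD6 under MG132 gave 4.13 ± 0.53, from 2.98 to 5.28, with library ratios from 14.0 to 21.9. KO under MG132 against siNT in DMSO gave 4.48 ± 0.53, and siJMJD6 under MG132 against siNT in DMSO gave 0.35 ± 0.53, which turned to −0.47 without DMSO library 1 and was 1.17 without DMSO library 2. These comparisons reuse the same libraries and are not independent of one another. In the KO libraries the sum of markers of androgen receptor-positive prostate cells was 35.3 and 39.1, against 15.0 to 27.2 in the other libraries of the table, and the part of cell mix in the GDF15 level was not tested.

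The low siNT values of GDF15 both came from library number 1. Library 2 exceeded library 1 by 1.64 (log2) in DMSO and by 1.90 under MG132, while in siJMJD6 cells it was lower by a log2 difference of −0.22. In DMSO 169 of 9778 genes, GDF15 among them, had library 2 above library 1 by at least as much. Under MG132 167 had, and 61 had in both. Gaps as wide with library 1 the higher were not counted. The gap was shared by TRIB3, a pseudokinase induced by ATF4 and CHOP, with 116.4 and 391.0 in DMSO libraries 1 and 2 and 136.0 and 447.5 under MG132. Library 2 was the higher in both treatments for 10 of 16 regulators of the integrated stress response and for 14 of 24 ATF4 and CHOP targets. Over all tested genes it was the higher in both for 3139 of 9778, or 32.1%, and for the chaperones that HSF1 drives for 2 of 14. The same held for 4 of 8 TGF-β superfamily ligands, 4 of 5 epithelial markers and 6 of 17 p53 targets. The gap was thus not particular to the integrated stress response. Library 1 was the higher in both for 2 of the 16 regulators, 3 of the 24 targets and 2871 of the 9778 genes. The labels do not say what the library numbers stand for, so a shared culture or day cannot be told apart from a shared number.

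After heat shock GDF15 was nearly even between libraries of a group. It had 3341.1, 3250.0 and 3300.8 normalised counts in basal siNT cells, and 3355.0, 3296.8 and 3520.1 in siNT cells after heat shock. In siJMJD6 cells after heat shock it had 2518.8, 2255.5 and 2405.4. The basal and heat shock siNT groups overlapped, and the siJMJD6 libraries lay below both. GDF15 ranked between 45 and 50 of 13616 genes in the siNT libraries and between 75 and 81 in the siJMJD6 libraries.

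Group means were 2393 ± 132 (SD, n = 3) in siJMJD6 cells, 3297 ± 45.7 in basal cells and 3391 ± 116 in siNT cells after heat shock. Heat shock against basal gave a GDF15 difference of 0.04 ± 0.07, with a 95% interval from −0.09 to 0.17. With quantile normalisation it was −0.05. siJMJD6 against siNT after heat shock gave −0.50 ± 0.07, from −0.64 to −0.37, with a ratio of means of 0.706. Against basal cells the siJMJD6 libraries gave −0.46 ± 0.07. The shift was modest among genes of this comparison, where 2308 of 9831 tested genes, GDF15 included, had a difference at least as low. The siJMJD6 differences of GDF15 in both tables, 0.22 ± 0.53 and −0.50 ± 0.07, have intervals that overlap, and their difference was not tested because the tables were normalised separately.

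The integrated stress response gives the first set of genes to read beside GDF15. Of 16 regulators, which comprise its transcription factors, eIF2α kinases and phosphatase subunits, 2 rose and 0 fell with MG132 in siNT cells, where 0.205% of all tested genes rose and 0.0614% fell. They were PPP1R15A, which directs the eIF2α phosphatase (2.56 ± 0.28, adjusted p = 0.00051), and DDIT3 (1.41 ± 0.26, adjusted p = 0.038). DDIT3 had 84.0 and 97.1 normalised counts in DMSO and 221.4 and 263.0 under MG132, with no overlap. Its call was lost under 8 of 14 alternatives, which include leaving out any siNT library (adjusted p from 0.068 to 0.39). ATF4 differed by 0.76 ± 0.27 and was not called (adjusted p = 0.65). Of 24 tested ATF4 and CHOP targets other than GDF15, 0 were called by limma and 6 were higher at an unadjusted p under 0.05. Their median was 0.33, against −0.00494 for all genes.

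With siJMJD6 under MG132, where GDF15 overlapped its control, these genes were lower. ATF4 had 345.6 and 269.4 normalised counts in siJMJD6 cells against 1072.2 and 1770.7 in siNT cells. Its fall of −2.17 ± 0.27 (adjusted p = 0.00042) came with falls in TRIB3 (−2.87 ± 0.53), the stress co-regulator NUPR1 (−2.34 ± 0.30) and DDIT3 (−1.11 ± 0.26). In all 0 of 16 regulators rose and 7 fell, where 6.22% of all genes rose and 7.35% fell. Of these 7, EIF2B5 and CEBPB lost their calls under 10 and 7 of 14 alternatives. Of the 24 targets 0 rose and 17 fell, with a median of −1.55 against −0.05 for all genes. CHAC1, which breaks down glutathione, fell by −4.40 ± 0.26, from 345.0 and 408.7 to 17.1 and 16.6. ASNS, asparagine synthetase, fell by −2.90 ± 0.30. TRIB3 lost its call without the filter on low values (adjusted p = 0.057). DDIT3 lost its call under 4 of 14 alternatives, among them leaving out either siNT MG132 library (adjusted p from 0.058 to 0.086). Under TMM scaling, which moves the median of all genes in this comparison by −0.10, 469 genes rose and 863 fell in place of 608 and 719.

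In the HSF1 KO, where GDF15 stood highest, most of these genes were near the siNT level. ATF4 had 1376.3 and 1303.7 normalised counts in the KO libraries, inside its siNT range, a difference of −0.04 ± 0.27. By limma 0 of 16 regulators were called against siNT under MG132, and 3 were higher at an unadjusted p under 0.05, where 0.276% of all genes rose and 1.00% fell. DDIT3 had 479.9 and 545.5 in the KO libraries, above both siNT libraries, with 1.08 ± 0.26 and an adjusted p of 0.068. ATF3, another stress-induced factor, had 145.7 and 90.7 against 46.4 and 57.7, with 1.14 ± 0.33 and an adjusted p of 0.14. Of the 24 targets CHAC1 alone was called, with 745.6 and 960.0 in the KO libraries and a rise of 1.17 ± 0.26 (adjusted p = 0.048). That call was lost under TMM scaling, without the filter on low values and without any 1 library of the siNT or KO groups (adjusted p from 0.054 to 0.44 under 8 of 13 alternatives). The differences of the 24 targets ran from −2.56 to 1.17 with a median of −0.02, so each lay below the 4.35 of GDF15.

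**Figure D2:**
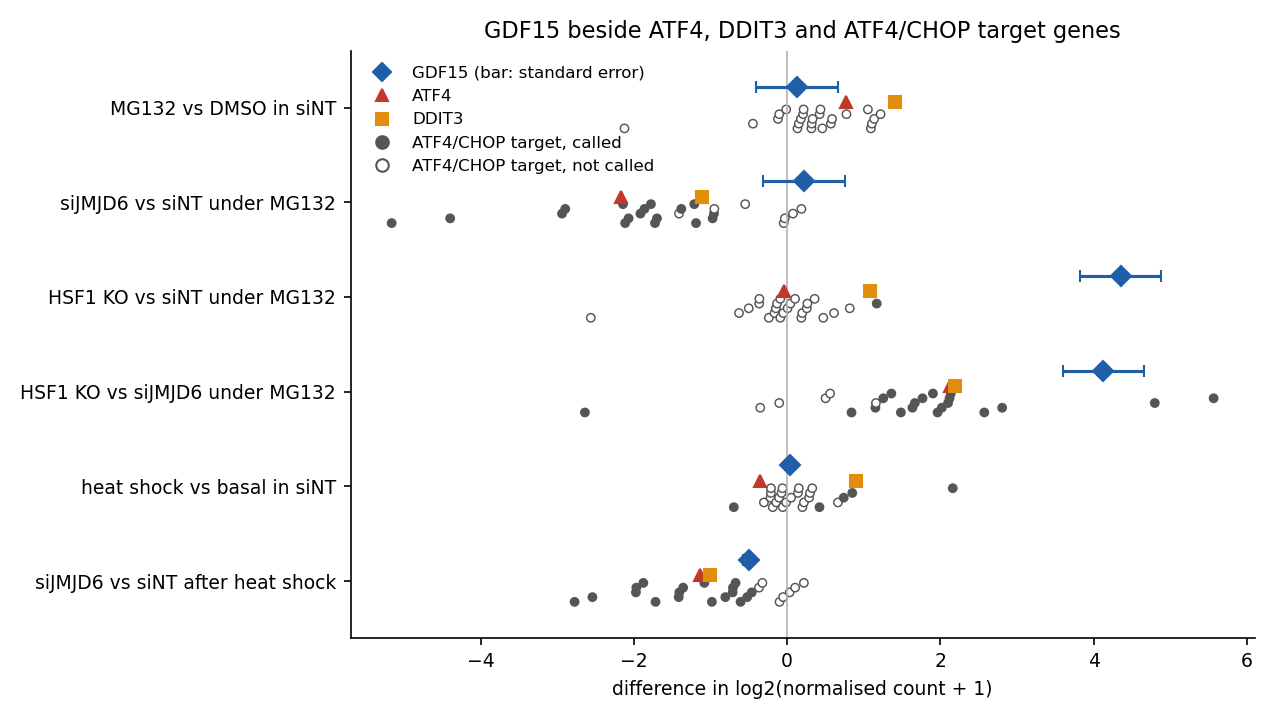
Differences in log2(normalised count + 1) in 6 comparisons for GDF15 (diamonds, bars are the standard error), ATF4 (triangles), DDIT3 (squares) and the tested ATF4 and CHOP targets (circles, filled where called by limma). In the KO against siNT row GDF15 stands at 4.35 and the targets run from −2.56 to 1.17. In the siJMJD6 row under MG132 GDF15 stands at 0.22 and 17 targets fell.

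Against siJMJD6 cells, the KO libraries were higher both in GDF15 and in this set. Of the 16 regulators 8 rose and 0 fell, where 11.1% of all genes rose and 9.69% fell. Of the 24 targets 18 rose and 1 fell, with a median of 1.65 against 0.05 for all genes. CHAC1 led them at 5.57 ± 0.26, above the 4.13 of GDF15, and DDIT3 rose by 2.19 ± 0.26 and ATF4 by 2.13 ± 0.27. The 1 target that fell was VLDLR, a lipoprotein receptor named after its values were seen, which was listed at 0.0 and 2.1 in the KO libraries and at 10.5 and 9.4 in siJMJD6 cells.

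Heat shock changed part of the set while GDF15 overlapped its basal level. Of the 16 regulators 3 rose and 1 fell, where 2.86% of all genes rose and 1.23% fell. The eIF2α kinase gene EIF2AK3 rose by 1.18 ± 0.16 and DDIT3 by 0.90 ± 0.12, while ATF4 fell by −0.36 ± 0.09 (adjusted p = 0.015). The ATF4 call was lost without basal library 1 or 2 or heat shock library 1 or 2 (adjusted p from 0.057 to 0.14). Of 25 tested targets 4 rose and 1 fell, with a median of 0.05. HERPUD1, a gene of protein degradation at the endoplasmic reticulum, rose by 2.16 ± 0.10, from 187.1, 170.2 and 197.3 to 865.9, 798.8 and 824.5.

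With siJMJD6 after heat shock, GDF15 and the called targets were lower. ATF4 had 288.6, 250.9 and 241.1 normalised counts in siJMJD6 cells and 560.3, 567.5 and 585.8 in siNT cells, a fall of −1.14 ± 0.09 (adjusted p = 2.1e-12). TRIB3 fell by −1.85 ± 0.14 and NUPR1 by −1.25 ± 0.09. DDIT3 fell to 127.6 to 173.5 normalised counts from 285.5 to 323.8 (adjusted p = 2.5e-08). Of the 25 targets 0 rose and 18 fell, where 21.4% of all genes rose and 24.9% fell, with a median of −0.71 against −0.03 for all genes. The −0.50 of GDF15 was smaller in size than this median. Of the 16 regulators 7 fell, and 3 rose, namely ATF3 (0.79 ± 0.23), ATF5 and PPP1R15A. The ATF3 call was lost without siNT or siJMJD6 library 2 (adjusted p = 0.063 and 0.071).

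**Figure D3:**
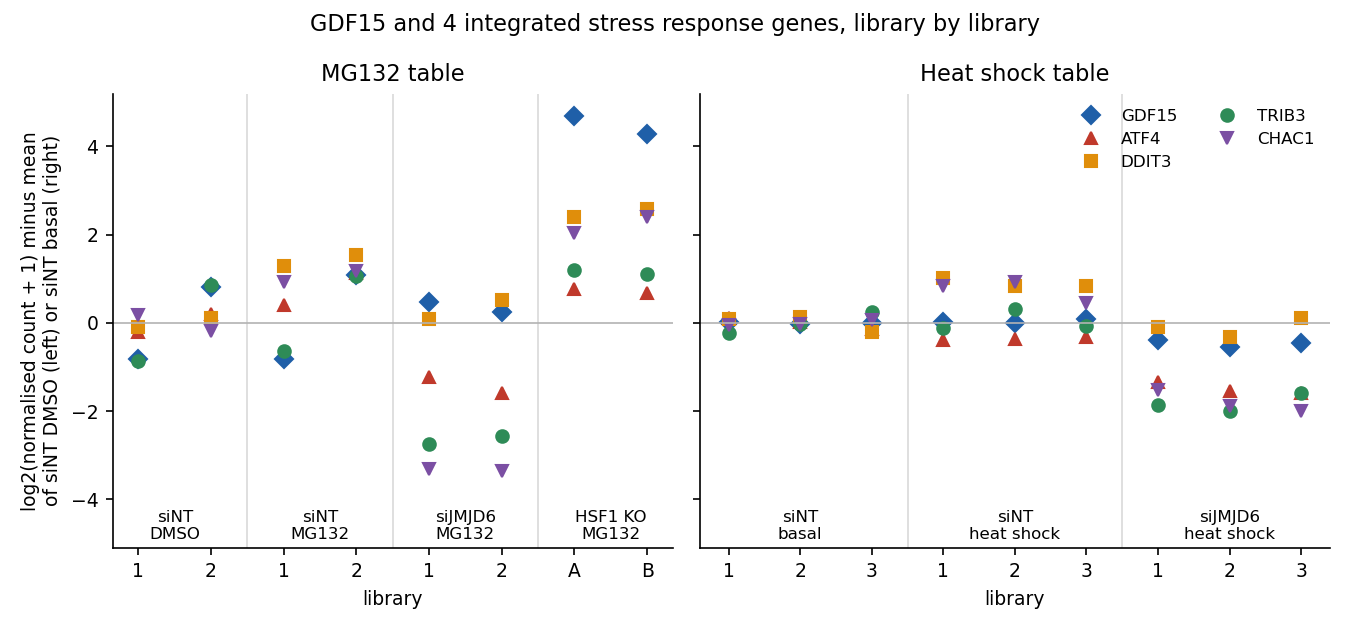
GDF15, ATF4, DDIT3, TRIB3 and CHAC1 in each library, as log2(normalised count + 1) minus the mean of the siNT DMSO libraries (left) or the siNT basal libraries (right). GDF15 and TRIB3 are low in library 1 and high in library 2 of both siNT groups of the MG132 table. In siJMJD6 cells under MG132 ATF4, TRIB3 and CHAC1 are low while GDF15 is not, and in the KO libraries GDF15 is the highest of the 5 genes.

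Of 22 other transcription factors linked to GDF15, 19 were tested. In the KO against siNT 0 rose and 1 fell, HSF1 itself (−2.99 ± 0.27, adjusted p = 5.3e-05), where 0.276% of all genes rose and 1.00% fell. EGR1, an early response factor known to drive GDF15, had 0.0 to 7.4 normalised counts over all 17 libraries and was below the filter. With siJMJD6, 0 of 19 factors rose and 5 fell under MG132, where 6.22% of all genes rose and 7.35% fell. After heat shock 2 rose and 8 fell, where 21.4% of all genes rose and 24.9% fell. SP1 was among the 8, and its call was kept under all 15 alternatives (differences from −0.82 to −0.60). It was not among those called under MG132. ATF6, NFE2L2, HIF1A and NFKB1 were called lower both under MG132 and after heat shock. Under MG132 their calls were lost under 3, 3, 6 and 9 of 14 alternatives, among them leaving out siNT library 1 (adjusted p from 0.052 to 0.15).

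Genes that process GDF15 or receive it were sparse. Of 8 listed genes 3 passed the filter on low values, the convertase genes FURIN and PCSK7 and the protease gene MBTPS1. FURIN had 46.4 and 63.3 normalised counts in siNT cells under MG132, 209.3 and 105.0 in siJMJD6 cells and 30.6 and 39.2 in the KO libraries. It rose with siJMJD6 under MG132 (1.44 ± 0.36, adjusted p = 0.022) and after heat shock (1.67 ± 0.15, adjusted p = 4.4e-11), where GDF15 itself was lower. The first of these calls was lost under 4 of 14 alternatives, among them leaving out siNT MG132 library 1 or siJMJD6 library 1 (adjusted p from 0.051 to 0.15). In the KO against siNT FURIN differed by −0.63 ± 0.36 and was not called. PCSK7 rose with siJMJD6 after heat shock (1.49 ± 0.27). RET had at most 2.5 normalised counts in the heat shock libraries, and GFRAL was not analysed here.

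Other ligands of the TGF-β superfamily were low. Of 32 listed ligands besides GDF15, 8 were tested in the first table and 9 in the second. In the KO against siNT 0 of 8 were called by limma, where 0.276% of all genes rose and 1.00% fell. Of the 8, 1 was higher at an unadjusted p under 0.05. With siJMJD6 under MG132, 2 rose and 0 fell, against 6.22% and 7.35% of all genes. They were BMP3 and TGFB3. The TGFB3 call in that comparison was lost under 10 of 14 alternatives, among them TMM scaling and quantile normalisation. With siJMJD6 after heat shock, 5 rose and 0 fell, against 21.4% and 24.9%. TGFB3, a ligand of the TGF-β receptors, had 6.7, 18.0 and 10.4 normalised counts in siNT cells after heat shock and 45.2, 36.0 and 46.1 in siJMJD6 cells, a rise of 1.87 ± 0.32. GDF15 differed by −0.50 in the same libraries. BMP3, a bone morphogenetic protein, rose under MG132 by 3.38 ± 0.81, to a mean of 53.6 normalised counts from a mean of 6.65, a call lost without siNT or siJMJD6 library 1 or the filter on low values (adjusted p from 0.064 to 0.14).

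Among other secreted stress and growth factors, 11 were tested in the KO against siNT, and 1 rose and 1 fell, where 0.276% and 1.00% of all genes did. CTGF, a matricellular growth factor, had 95.8 and 187.6 normalised counts in the KO libraries against 17.6 and 18.8 in siNT cells, a rise of 2.82 ± 0.63 (adjusted p = 0.048). That call was lost under 7 of 13 alternatives, among them leaving out any 1 library of either group (adjusted p from 0.056 to 0.44). CLU, the extracellular chaperone clusterin, had 4.4 and 4.2 against 41.2 and 103.1, a fall of −3.65 ± 0.43 (adjusted p = 0.00051). CLU was thus low in the libraries where GDF15 was at 16226.7 and 21674.3.

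The chaperones that HSF1 drives were low in the KO, where GDF15 was high. Of 14 tested, 0 rose and 12 fell against siNT under MG132, with a median of −2.29, where 0.276% of all genes rose and 1.00% fell. HSPA1A, the inducible HSP70, had 181.3 and 229.0 normalised counts in the KO libraries against 12973.1 and 7553.3 in siNT cells. These genes rose with stress where GDF15 overlapped its control, 5 of 14 with MG132 (0.205% of all genes) and 10 of 14 after heat shock (2.86% of all genes), with 0 that fell in either.

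The genes with the profile most like GDF15 were found among 9378 genes tested in both tables, by the smaller of the Pearson correlations over the 8 and over the 9 libraries. The first 10 were CCDC50, XPR1, PPP3CB, MYB, MRPL27, RGS2, RPS6KA2, CCNC, TUBGCP4 and TNFRSF18, with a smaller r from 0.90 to 0.84. Within a table the libraries share treatments, and the 2 KO libraries carry most of the spread of GDF15 in the MG132 table, so r is a description only. All 10 were higher in the KO than in siNT cells, as the choice requires, with differences from 0.30 to 3.75 against 4.35 for GDF15. RGS2, a regulator of G protein signalling, had 547.6 and 590.9 normalised counts in the KO libraries and 195.7 and 119.1 in siNT cells under MG132. TNFRSF18, a receptor of the TNF family, had 87.4 and 26.8 against 1.1 and 5.6. Genes of the integrated stress response stood further down this order, with the alanine aminotransferase gene GPT2 at 223, DDIT3 at 257, TRIB3 at 276 and ATF4 at 691.

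The genes next to GDF15 on chromosome 19 did not share its level in the KO. The nearest in the tables by RefSeq are PGPEP1, LSM4 and JUND before it, at 16208, 63082 and 104536 bases, and SSBP4, ISYNA1 and ELL after it, at 13549, 45212 and 53487 bases. In the KO against siNT they differed by 0.10, 0.35, 0.17, −0.55, −0.27 and 0.43 in that order, and 0 of 6 were called (lowest adjusted p = 0.49, and 0 of 6 at an unadjusted p under 0.05). Of all genes tested there, 0.276% rose and 1.00% fell. With siJMJD6 after heat shock PGPEP1, a peptidase gene, rose by 0.89 ± 0.18 (adjusted p = 8.4e-05), with 197.3, 109.4 and 147.1 normalised counts against 92.7, 87.4 and 60.6. SSBP4 fell by −0.35 ± 0.12 and JUND, an AP-1 subunit, by −0.27 ± 0.09 in the same comparison, and these calls were lost under 3 and 4 of 15 alternatives (adjusted p from 0.061 to 0.14). LSM4, ISYNA1 and ELL were not called. In that comparison 21.4% of all genes rose and 24.9% fell, so such calls were common among genes at large.

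**Figure D4:**
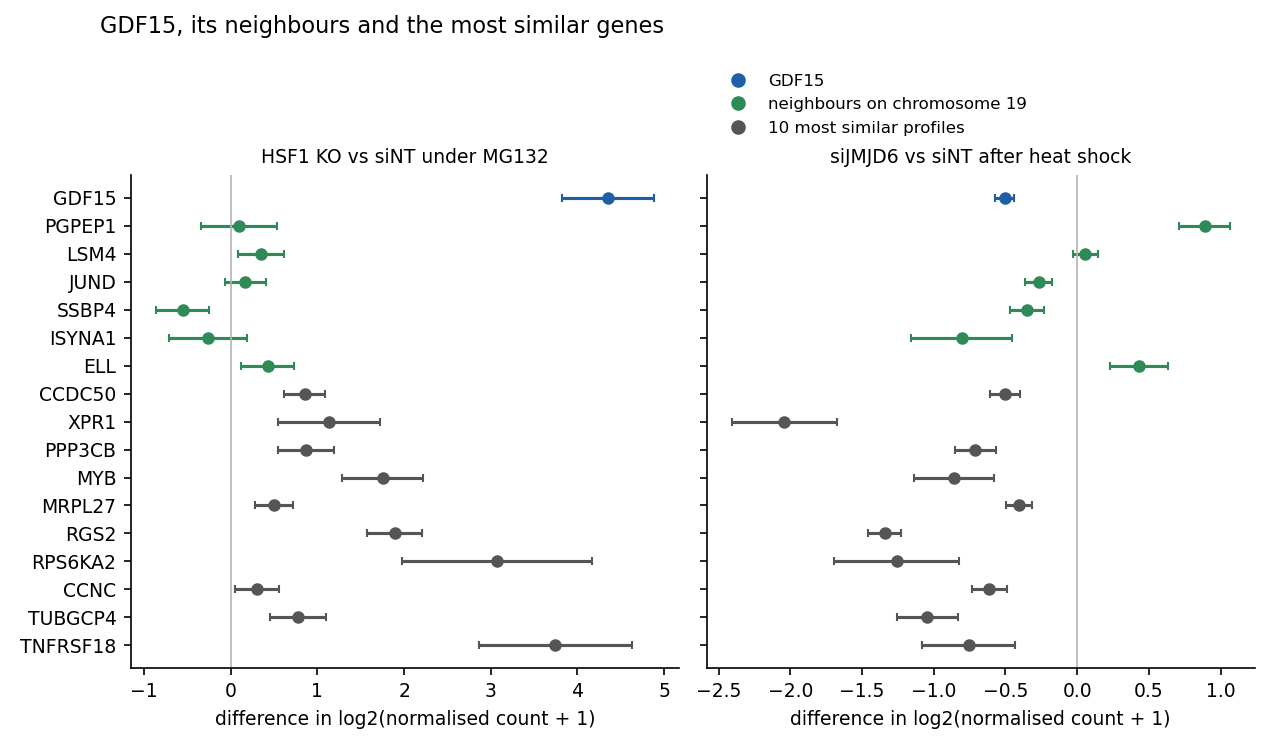
Differences in log2(normalised count + 1) with their standard error (bars) for GDF15, its 6 neighbours on chromosome 19 and the 10 genes with the most similar profile, in the KO against siNT under MG132 (left) and in siJMJD6 against siNT after heat shock (right). The neighbours lie between −0.55 and 0.43 on the left, where GDF15 lies at 4.35.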

How the data were processed

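Messenger RNA of PC3M cells was measured in 17 libraries by 3' tag sequencing. The values are the authors' normalised count signal, deposited as 1 table per experiment. Per the submitters' processing notes, FastQC 0.11.2, STAR 2.6.0 and HTSeq were used with build hg38. Neither labels nor notes state the annotation, the strand setting or how values were scaled. The tables were treated as separately normalised, so each test stayed within 1 table. Low values lay near whole multiples of the commonest low value (tolerance 0.05 of that step) for 7.75% to 99.7% of them, depending on the library. Whole reads could thus be read in some libraries only, so no count model was used and depth was not compared.

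Log2(value + 1) was fitted with limma 3.58.1 (trend) in R 4.3.3, all groups of a table sharing 1 spread per gene, for genes with at least 10 in 2 (MG132) or 3 (heat shock) libraries. The spread of each gene was drawn by limma toward that of genes of similar level. P-values were adjusted by Benjamini-Hochberg over all tested genes. There were 9 comparisons of GDF15, and calls were used in 6. GDF15, the 11 gene lists and the tests were chosen with earlier results of these data known.

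Named were GDF15, JMJD6, HSF1, members of the lists of regulators, other factors and processing genes, up to 4 called members of each other list by smallest adjusted p, the 10 most similar genes, and 3 neighbours on each side. On simulated data of the MG132 design the fit recovered 52.8% of changes of 1.5 and 95.5% of changes of 3.0 (log2). Alternatives were a pseudocount of 10, no filter, TMM scaling, quantile normalisation, only the groups compared, a replicate block and leaving out each library. Older symbols were matched for CTGF and other renamed genes. Results for some listed genes are not reported here.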

Additional observations from a re-analysis of the deposited data

Results flagged for a closer look

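PPP1R15A, which directs the eIF2α phosphatase and is induced by the same pathway as GDF15, differed in opposite directions with siJMJD6 in the separately normalised tables. Under MG132 it had 71.3 and 92.9 normalised counts in siJMJD6 cells against 240.9 and 274.5 in siNT cells, a difference of −1.65 ± 0.28. After heat shock it had 121.3, 107.2 and 109.8 against 70.5, 74.0 and 78.2, a difference of 0.60 ± 0.15. Each library of one experiment moved one way and each library of the other the opposite way. The difference between the experiments was not tested. GDF15 itself could not be checked for a library standing apart, since no group holds more than 3 libraries.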

How the results depend on the processing

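GDF15 kept its direction in the KO comparisons under every alternative run, from 3.40 to 5.30 against siNT when 1 library was left out. Leaving out 1 library gave −0.82 to 1.08 for MG132 against DMSO and −0.73 to 1.17 for siJMJD6 against siNT under MG132. For siJMJD6 under MG132 against siNT in DMSO it gave −0.47 to 1.17. None of these has a settled sign when library numbers are not paired. By number, siJMJD6 cells were above both siNT groups in library 1 and below both in library 2. MG132 against DMSO by number was 474.9 against 474.6 in library 1 and 1772.3 against 1482.9 in library 2. Quantile normalisation gave −0.053 for heat shock and −0.41 for siJMJD6 after heat shock. Of 126 GDF15 differences under alternatives, 118 moved by less than the spread between libraries, and the other 8 belong to the first 3 comparisons named above and to quantile normalisation.

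Without the filter on low values 6 genes were called with MG132, 675 with siJMJD6 under MG132 and 29 in the KO against siNT, in place of 26, 1327 and 125. With only the groups compared, the last 2 were 626 and 210. Leaving out 1 library gave 10 to 31, 351 to 1268, and 43 to 185 in that order, and 654 to 2019 in the KO against siJMJD6. Called ATF4 and CHOP targets were 1 with MG132 when only the groups compared were fitted. In the KO against siNT they were 0 without the filter and under TMM scaling, and 0 to 1 without 1 library. They were 12 to 19 in the KO against siJMJD6 and 3 to 5 after heat shock without 1 library. Where 1 library was left in a group, it was taken to vary like the other groups. Fewer libraries also lower the power of the fit.

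Same-numbered libraries deviated together at r from 0.04 to 0.37 over genes in the MG132 table and from −0.03 to 0.09 in the heat shock table. In the MG132 table r was 0.37 between siNT DMSO and siNT MG132. It was 0.32 between siNT DMSO and siJMJD6 MG132, and 0.04 between siNT MG132 and siJMJD6 MG132. Numbers were not used as pairs in the main fit, because the labels do not say what they stand for. An effect shared by number was not tested. With the replicate block 41 genes were called for MG132 against DMSO, and 1811 for siJMJD6 under MG132, in place of 26 and 1327. No block could be fitted for the KO, whose libraries carry letters.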
